A study of Mus musculus with 8 samples.

Results

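Copy levels of 8 genes that control entry into the cell cycle were followed in mouse hepatocellular carcinomas (HCC): Rb1, the cyclin D genes Ccnd1, Ccnd2 and Ccnd3, the cyclin E genes Ccne1 and Ccne2, and the kinase genes Cdk4 and Cdk6. A probe belonged to a gene when the array's annotation gave it that gene's name, and all 8 genes were found among 24691 named autosomal genes. The study compared 6 HCC of male C57BL/6 mice carrying a transgene for FEAT, also named Mettl13, aged 16, 21, 20, 18.5, 22 and 12 months (tumours 1 to 6), with 2 non-tumour livers. These were a normal liver of a FEAT transgenic male of 13 months and a wild-type liver of a C57BL/6 male of 6 months, and neither has a replicate. Each sample was hybridised in Cy3 against the DNA of a normal liver of a wild-type C57BL/6 male of 6 months in Cy5, so that every array shares that reference. The mice of tumours 1 to 5 were 16 months or older, beyond the age of either non-tumour animal, so an effect of age and of tumour cannot be told apart in them. The labels describe tumour 1 as tumours in both liver lobes, tumours 3 and 4 as multiple, with lung metastasis in tumour 4, and tumours 2, 5 and 6 as limited to the liver. The labels name neither the promoter that drives the transgene nor the share of tumour cells in a sample, and genomic DNA has no tissue markers against which the labels could be checked.

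Levels are given as log2 of sample over reference DNA, centred on the median of all autosomal probes of the array. A level of 0 is therefore that of the median probe, which need not be the level of most of the genome. The arrays held 232626 probes at a median spacing of 7.85 kb, and the noise between neighbouring probes ranged from 0.22 in tumour 5 to 0.49 in tumour 4, against 0.32 in non-tumour FEAT liver and 0.22 in wild-type liver. Since 1 probe is that noisy, the level of a gene was read as the mean of all probes within 0.5 Mb of it (its window), with an SE over those probes. The segment around each gene, a stretch of probes at 1 level found by penalised least squares, was called gained at 0.2 or above and lost at -0.2 or below. Fewer cells with a change and a smaller change in each cell cannot be told apart in such bulk DNA.

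The retinoblastoma protein, encoded by Rb1, holds E2F transcription factors in check and so restrains the genes of DNA replication. D cyclins bind Cdk4 and Cdk6, which phosphorylate the retinoblastoma protein, and E cyclins with Cdk2 complete this step, after which E2F factors are free to act. In human liver cancer the pathway is often disturbed, and human CCND1 lies beside FGF19 in a region that is amplified in some of these tumours.

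The number of probes that carry a member's name differed widely, from 23 for Rb1 and 20 for Cdk6 over 4 for Ccnd2, 3 for Ccne2 and 2 for Ccne1 to a single probe each for Ccnd1, Ccnd3 and Cdk4. The windows held between 86 probes (Ccne1) and 157 probes (Cdk4). All probe sequences of Ccnd1, Ccnd3, Cdk4 and Ccne1 are given because, unlike their window levels, these genes' own-probe values rest on them alone. They are 50 to 60 bases long and are written as the scanner file lists them, whose strand is not given:
Ccnd1 probe: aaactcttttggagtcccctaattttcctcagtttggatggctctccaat
Ccnd3 probe: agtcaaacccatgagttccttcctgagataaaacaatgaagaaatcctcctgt
Cdk4 probe: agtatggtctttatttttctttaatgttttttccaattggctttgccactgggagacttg
Ccne1 probe 1: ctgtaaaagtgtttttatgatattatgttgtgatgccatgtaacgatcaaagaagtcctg
Ccne1 probe 2: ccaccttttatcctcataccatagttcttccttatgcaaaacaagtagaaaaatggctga

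Of the 23 Rb1 probes, the first, the last, the brightest and the dimmest are shown, since the first and last bound the part of the gene that was measured and the other pair mark the ends of the signal range discussed with that gene. No part of a sequence is in capitals, because the whole oligonucleotide hybridises:
Rb1 probe 1, first: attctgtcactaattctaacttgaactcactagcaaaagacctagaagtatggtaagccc
Rb1 probe 9, dimmest: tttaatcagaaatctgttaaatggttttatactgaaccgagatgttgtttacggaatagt
Rb1 probe 22, brightest: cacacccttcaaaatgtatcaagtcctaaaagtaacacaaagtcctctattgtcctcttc
Rb1 probe 23, last: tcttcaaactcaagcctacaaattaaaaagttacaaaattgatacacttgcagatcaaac

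In the coordinates of the array's own annotation, for which no source names a genome build, the Rb1 probes span chromosome 14 from 67877385 to 68003906. Ccne1 (34993369 to 34997461) and Ccnd1 (141356305 to 141356354) both lie on chromosome 7, and their values are therefore not independent where that whole chromosome moves. Ccnd2 lies on chromosome 6 (127153030 to 127172846), Ccnd3 on chromosome 17 (45733333 to 45733385), Ccne2 on chromosome 4 (11121120 to 11131130), Cdk4 on chromosome 10 (126564763 to 126564822) and Cdk6 on chromosome 5 (3351959 to 3528141). The GC content of the 55 member probes averaged 36.3%, against 36.5% for all probes, and none of them carried a flag for a dim or outlying spot in the scanner output, which was used for the wild-type array.

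Among the 48 combinations of 8 genes and 6 tumours, 3 were called lost and 0 gained. Rb1 was lost in tumour 1, and Ccnd1 and Ccne1 were lost in tumour 5, while Ccnd2, Ccnd3, Ccne2, Cdk4 and Cdk6 were called in no tumour, and no member was called in either non-tumour liver. Of all 24689 genes with at least 5 probes in the window, 24.8% were lost and 13.5% gained in at least 1 HCC, so that 3 lost members of 8, with 2 of them on 1 chromosome, and 0 gained members of 8 are to be read beside these shares. In tumour 1 alone, 10.7% of all genes were lost, and in tumour 5 alone 13.9%. The plot of window levels shows that the members' levels spread most in these same tumours.

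**Figure D1:**
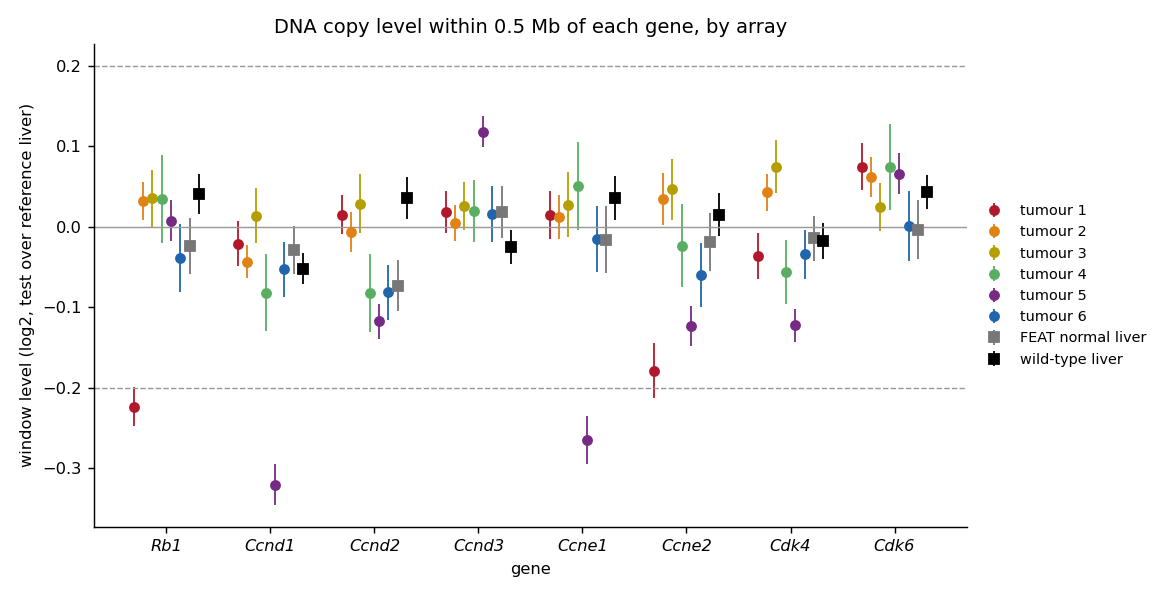
Mean log2 ratio of the probes within 0.5 Mb of each gene (y axis) for the 8 genes (x axis), with tumours 1 to 6 as circles, the non-tumour FEAT liver and wild-type liver as squares, and bars for the SE over probes. Dashed lines mark 0.2 and -0.2; Rb1 in tumour 1 and Ccnd1 and Ccne1 in tumour 5 are the windows beyond them.

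Rb1, the tumour suppressor of the set, stood apart in 1 tumour. Its window level was -0.22, 0.03, 0.04, 0.03, 0.01 and -0.04 in tumours 1 to 6, against -0.02 in non-tumour FEAT liver and 0.04 in wild-type liver. Tumour 1 was therefore well below all other arrays, at 85.7% of the reference DNA level, while tumours 2 to 6 lay between 97.3% and 102%, against 98.4% in non-tumour FEAT liver and 103% in wild-type liver. Within the window, 86.1% of the probes were below 0 in tumour 1, against 49.0% in non-tumour FEAT liver and 50.0% in wild-type liver. The tumours averaged -0.03 ± 0.10 (SD, n = 6), against 0.01 in the 2 non-tumour livers. The difference of -0.03 (SE 0.07, 95% interval -0.18 to 0.12) had an adjusted p of 1.00 in limma over all gene windows. In that test 0 of 24689 windows were called, which is 0%, and 18 had an unadjusted p under 0.05.

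Most probes inside Rb1 were lower in tumour 1 than in either non-tumour liver. Against non-tumour FEAT liver alone, 16 of 21 probes were lower and 5 higher, with a mean difference of -0.19, and against wild-type liver alone 19 of 22 were lower and 3 higher, with a mean of -0.30. Set against the mean of both livers, all 21 of the 23 probes that have values on the 3 arrays were lower (-0.26 ± 0.17, SD over probes). Probe 6, with no value in non-tumour FEAT liver, stood at 0.58 in tumour 1, against 0.21 in wild-type liver. In the other tumours the difference from the mean of both livers ran from -0.07 in tumour 5 to 0.15 in tumour 4, and between 8 and 13 probes were lower. With the probes cut into 3 stretches of 7 or 8 along the chromosome, the mean level in tumour 1 was -0.19, -0.11 and -0.23, against -0.04, 0.01 and -0.05 in non-tumour FEAT liver and 0.05, 0.30 and 0.05 in wild-type liver. Each stretch was lower in tumour 1 than in either non-tumour liver. Probes of 1 gene share the DNA sample and the array, so they are not replicates of the tumour.

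Single Rb1 probes cannot be read by themselves, because their level varied with their brightness. The 5 brightest probes, by the signal of the reference channel on the wild-type array, averaged -0.46, -0.14, -0.33, -0.54, -0.16 and -0.62 in tumours 1 to 6, against -0.48 in non-tumour FEAT liver and 0.10 in wild-type liver. The 5 dimmest averaged -0.00, 0.04, 0.51, 0.86, 0.03 and 0.34 in the same tumours, against 0.16 in non-tumour FEAT liver and 0.49 in wild-type liver. Across the Rb1 probes, Pearson's r between the level and the log2 reference signal was -0.72 in tumour 1 (22 probes) and ranged from -0.31 to -0.84 over the other tumours, against -0.73 in non-tumour FEAT liver and -0.52 in wild-type liver, as a description of probes that share the array. Over all autosomal probes r was between -0.37 and -0.79 in tumours, against -0.60 in non-tumour FEAT liver and -0.35 in wild-type liver. The reference signal and the level of the wild-type array come from the same spots. Across the Rb1 probes the dependence was weakest in tumours 2 (-0.32) and 5 (-0.31) and differed between the 2 non-tumour livers. Over all autosomal probes it was weakest in wild-type liver (-0.35) and tumour 5 (-0.37), followed by tumour 1 (-0.44). The part of this dependence in the Rb1 differences above was not tested.

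**Figure D2:**
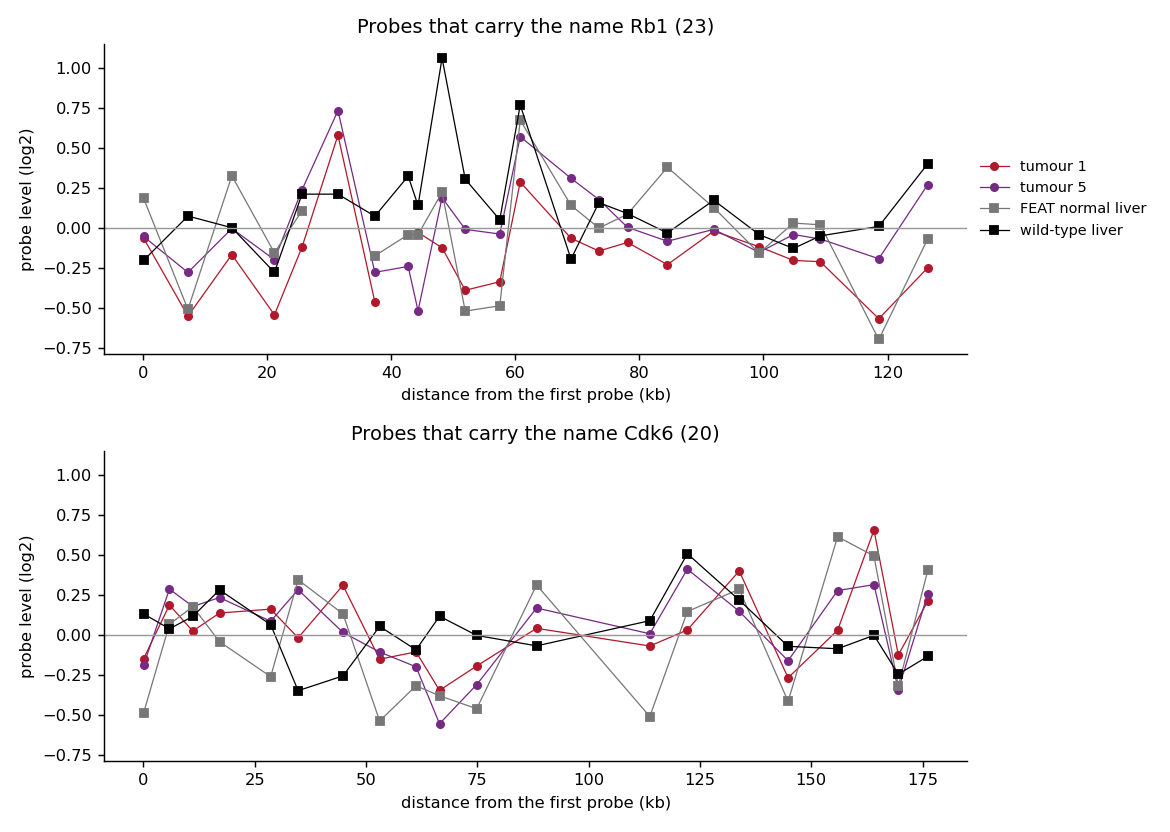
Log2 ratio of each probe named for Rb1 (top, 23 probes) and Cdk6 (bottom, 20 probes) against its distance in kb from the gene's first probe, for tumours 1 and 5 (circles) and non-tumour FEAT and wild-type liver (squares). Tumour 1 runs below both non-tumour livers on average along Rb1, and the 4 arrays cross each other along Cdk6.

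The Rb1 loss was not limited to the gene. The segment that held it in tumour 1 ran from 64341590 to 75530217, over 11.2 Mb and 1059 probes, at -0.24. Chromosome 14 as a whole stood at -0.24 in tumour 1 over 10526 probes, against 0.00 in non-tumour FEAT liver and 0.03 in wild-type liver. Of its 7 segments in that tumour, 6 were called lost, and the exception, at -0.14 over 13.8 Mb, adjoined the Rb1 segment on one side. On the other side lay a short segment from 64128347 to 64327455, at -1.32 over 31 probes, which does not hold Rb1 and is among the 6 called lost. The border beside it was not particular to tumour 1. In tumours 2 to 5 and in non-tumour FEAT liver the Rb1 segment also began at 64341590, and in tumour 6 at 64327401. In wild-type liver it ran across this place, from 3660199 to 77648144. The Rb1 window differed from the rest of its chromosome by 0.01 in tumour 1, against -0.03 in non-tumour FEAT liver and 0.02 in wild-type liver. Neighbours in the window, among them Fndc3a, Itm2b, Med4 and Sucla2, share this level.

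Ccnd1 encodes cyclin D1, and its window had a level of -0.02, -0.04, 0.01, -0.08, -0.32 and -0.05 in tumours 1 to 6, against -0.03 in non-tumour FEAT liver and -0.05 in wild-type liver. Tumour 5 was the lowest, at 80.1% of the reference, with 90.7% of window probes below 0, against 54.1% in non-tumour FEAT liver and 62.0% in wild-type liver. The other 5 tumours lay between -0.08 and 0.01, on either side of the non-tumour livers. The tumours averaged -0.08 ± 0.12 (SD, n = 6), against -0.04 in the non-tumour livers, a difference of -0.04 (SE 0.08, limma adjusted p = 1.00).

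The segment with Ccnd1 in tumour 5 ran over 19.9 Mb from 121859566 to 141762546, with 2224 probes at -0.28. Neighbours of Ccnd1 in the window include Cttn, Fadd, Fgf3, Fgf4 and Fgf15, the mouse counterpart of human FGF19. The single Ccnd1 probe stood at -0.21, -0.19, -0.19, -0.25, -0.44 and 0.01 in tumours 1 to 6, against 0.18 in non-tumour FEAT liver and -0.33 in wild-type liver. Its value in tumour 5 was the lowest of the 8 arrays, but the 2 non-tumour livers lay on opposite sides of 0. No array showed a gain of this region, and the highest window level among tumours was 0.01, in tumour 3.

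Ccnd2 encodes cyclin D2. Its window stood at 0.02, -0.01, 0.03, -0.08, -0.12 and -0.08 in tumours 1 to 6, against -0.07 in non-tumour FEAT liver and 0.04 in wild-type liver. Only tumours 4, 5 and 6 lay below both non-tumour livers, by at most 0.04. The segment of tumour 5 was at -0.10, short of the calling threshold, and chromosome 6 as a whole stood at -0.08 there, against 0.00 in non-tumour FEAT liver and 0.03 in wild-type liver. The difference between groups was -0.02 (SE 0.05, limma adjusted p = 1.00).

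Ccnd3 encodes cyclin D3 and was the member nearest to a gain. Its window stood at 0.02, 0.00, 0.03, 0.02, 0.12 and 0.02 in tumours 1 to 6, against 0.02 in non-tumour FEAT liver and -0.03 in wild-type liver. Tumour 5 was above all other arrays. Its segment, 59.6 Mb long with 5318 probes, was at 0.193, just inside the threshold of 0.2 that 11.3% of all genes passed as gains in that tumour. With the array centred on its mode, that segment was called gained. The difference of the Ccnd3 window from the rest of chromosome 17 was -0.07 in tumour 5, where that rest stood at 0.19, and -0.11 in tumour 4, where it stood at 0.13, against 0.02 in non-tumour FEAT liver and -0.04 in wild-type liver. The tumours exceeded the non-tumour livers by 0.04 (SE 0.04, limma adjusted p = 1.00).

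The single Ccnd3 probe gave another picture than its window. It stood at 0.62, 0.46, 0.89, 0.34, 0.01 and 0.15 in tumours 1 to 6, against 0.50 in non-tumour FEAT liver and 0.26 in wild-type liver. Every array was above 0, the non-tumour livers included, and tumour 5, with the highest window, had the lowest value. The window, with 137 probes, was at or below 0.03 in each of the other 5 tumours.

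**Figure D3:**
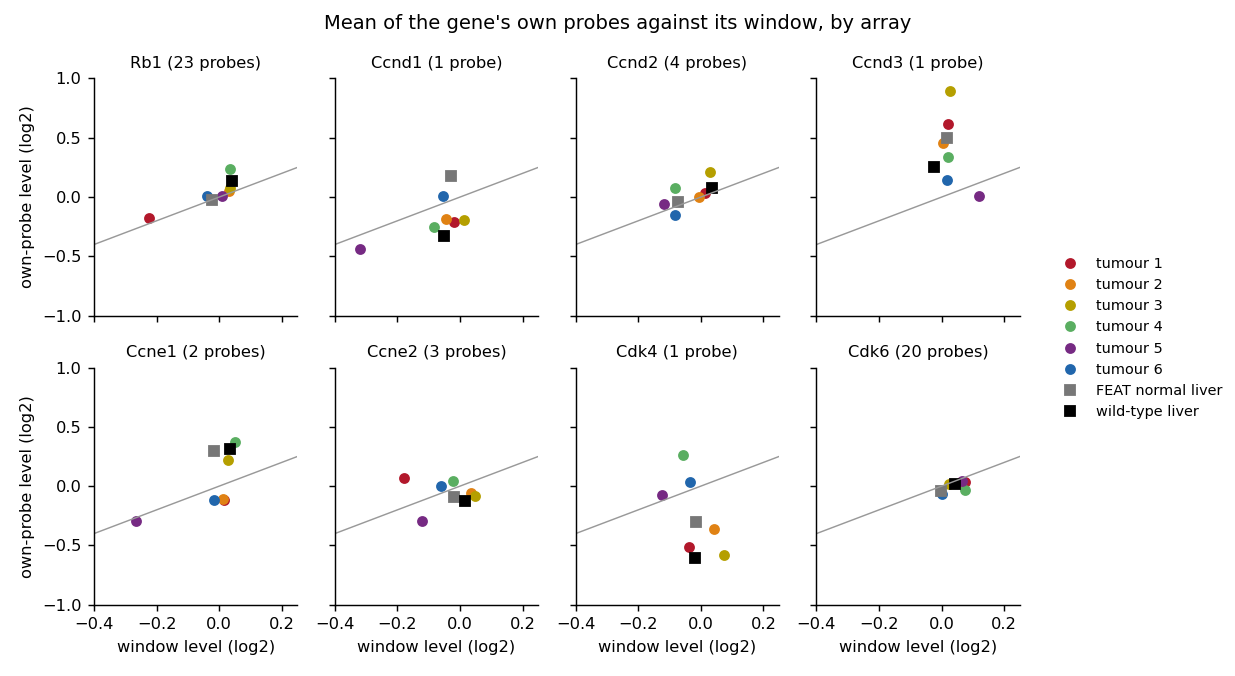
Mean log2 ratio of the probes named for a gene (y axis) against the mean of its 0.5 Mb window (x axis), with tumours as circles, non-tumour FEAT and wild-type liver as squares and a line of equality. Rb1 and Cdk6, with 23 and 20 probes, lie within 0.20 of the line, while the single probes of Ccnd3 and Cdk4 leave it on most arrays, the non-tumour livers included.

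Among the cyclin E genes, which encode the partners of Cdk2, Ccne1 was lost in tumour 5. Its window stood at 0.01, 0.01, 0.03, 0.05, -0.27 and -0.02 in tumours 1 to 6, against -0.02 in non-tumour FEAT liver and 0.04 in wild-type liver. Tumour 5 was far below the others, at 83.2% of the reference, with 85.9% of the probes below 0, against 52.9% in non-tumour FEAT liver and 51.8% in wild-type liver. Its segment covered 43.9 Mb from the first probe of chromosome 7, with 4084 probes at -0.28. The group difference was -0.04 (SE 0.08, limma adjusted p = 1.00).

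Ccne1 and Ccnd1 were both lost in tumour 5, in different segments of chromosome 7, and whether these losses arose together was not tested. All 3 segments of chromosome 7 were called lost there, at -0.28, -0.25 and -0.28 from the lower to the higher coordinates, and the chromosome stood at -0.26, against -0.01 in non-tumour FEAT liver and 0.01 in wild-type liver. The Ccne1 window differed from the rest of the chromosome by -0.01 in tumour 5 and the Ccnd1 window by -0.06. The Ccnd1 difference was -0.02 in non-tumour FEAT liver and -0.06 in wild-type liver. Both Ccne1 probes were below 0 in tumour 5, at -0.19 and -0.40, against 0.65 and -0.06 in non-tumour FEAT liver and 0.62 and 0.01 in wild-type liver. This was not particular to tumour 5. Both were also below 0 in tumours 1 (-0.16 and -0.07), 2 (-0.08 and -0.14) and 6 (-0.15 and -0.09), where Ccne1 was not called. In tumour 3 they stood at 0.58 and -0.14, and in tumour 4 at 1.12 and -0.37.

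Ccne2 was lowest in another tumour. Its window stood at -0.18, 0.03, 0.05, -0.02, -0.12 and -0.06 in tumours 1 to 6, against -0.02 in non-tumour FEAT liver and 0.02 in wild-type liver. Tumours 1 and 5 were below all other arrays, with 76.8% and 73.7% of window probes below 0, against 50.5% in non-tumour FEAT liver and 52.0% in wild-type liver. The segment of tumour 1 was 37.9 Mb long and at -0.15, so that it was not called, on a chromosome 4 at -0.18, against 0.00 in non-tumour FEAT liver and 0.02 in wild-type liver. In tumour 1, 3 of the 6 segments of chromosome 4 were called lost, and none of them held Ccne2. Its 3 own probes did not follow the window in tumour 1, where they averaged 0.07 and ranged from -0.29 to 0.55, against -0.09 in non-tumour FEAT liver and -0.13 in wild-type liver. The group difference of the window was -0.05 (SE 0.06, limma adjusted p = 1.00).

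Neither kinase gene was called in a tumour. Cdk4, which encodes a partner of the D cyclins, had a window level of -0.04, 0.04, 0.07, -0.06, -0.12 and -0.03 in tumours 1 to 6, against -0.01 in non-tumour FEAT liver and -0.02 in wild-type liver. Tumour 5 was the lowest, with a segment at -0.12 over 72.5 Mb, which was not called. The groups differed by -0.01 (SE 0.05, limma adjusted p = 1.00), and the sign of this value turned with the centring and the GC correction. The single Cdk4 probe stood at -0.51, -0.36, -0.58, 0.26, -0.07 and 0.04 in tumours 1 to 6, against -0.30 in non-tumour FEAT liver and -0.61 in wild-type liver. It was lowest of all in wild-type liver, and the signal of this probe there was 196 in the test channel and 304 in the reference channel.

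Cdk6, the other kinase that works with D cyclins, stood at 0.08, 0.06, 0.02, 0.07, 0.07 and 0.00 in tumours 1 to 6, against -0.00 in non-tumour FEAT liver and 0.04 in wild-type liver. Tumours 1, 2, 4 and 5 were above both non-tumour livers, by no more than 0.03 over the wild-type liver. The difference of 0.03 (SE 0.04, 95% interval -0.05 to 0.12) had a limma adjusted p of 1.00. Its 20 probes, spread over 176 kb, averaged between -0.06 and 0.04 in tumours, against -0.04 in non-tumour FEAT liver and 0.02 in wild-type liver. The segments with Cdk6 were at or below 0.09 in all 6 tumours, against 0.01 in non-tumour FEAT liver and 0.02 in wild-type liver. The SD of the window over tumours was 0.03, the smallest of the members, against 0.12 for Ccnd1 and Ccne1.

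The order of the members within each array was read from steps between neighbours, set against 2 SE of the step. This SE covers the probes of 1 hybridisation only, and distant ranks can differ by more than it even in wild-type liver, where Ccnd1 stood at -0.05 (SE 0.02) and Cdk6 at 0.04 (SE 0.02). In tumour 1 the lowest were Rb1 at -0.22 and Ccne2 at -0.18, which did not differ beyond 2 SE of their difference, and the step of 0.14 from Ccne2 to the next gene, Cdk4, did exceed it. In tumour 5, Ccnd1 and Ccne1 were lowest and did not differ by more than 2 SE, followed after a step of 0.14 by Ccne2, Cdk4 and Ccnd2 at -0.12 each, and after a further step of 0.13 by Rb1 at 0.01, Cdk6 at 0.07 and Ccnd3 at 0.12. In tumours 2, 3, 4 and 6 and in both non-tumour livers, 0 of 7 steps between neighbours in the order exceeded 2 SE. The median of the 8 members was -0.00, 0.02, 0.03, -0.00, -0.12 and -0.04 in tumours 1 to 6, against -0.02 in non-tumour FEAT liver and 0.03 in wild-type liver. Over all genes the medians were 0.02, 0.01, 0.05, 0.00, 0.01 and -0.01 in the tumours, against -0.01 in non-tumour FEAT liver and 0.01 in wild-type liver.

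Set against the rest of their own chromosomes, the 8 windows differed little. The difference of tumours from non-tumour livers in this measure lay between -0.03 (Ccnd3) and 0.02 (Cdk6), with limma adjusted p-values of 1.00, and 0 of 24689 windows, or 0%, were called (162 with an unadjusted p under 0.05). Without the non-tumour FEAT liver, limma called 21 windows of all genes, all lower in tumours, and none of these was a member. Over all members and tumours, the window differed from the rest of its chromosome by -0.11 (Ccnd3 in tumour 4) to 0.08 (Cdk6 in tumour 4).

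Genes of other chromosomes were ranked by how closely their windows matched those of the called members over the 8 arrays. The closest to Rb1 were Osr1 and AK006240, which share 1 window on chromosome 12, at a root mean square difference of 0.033 and a level of -0.19 in tumour 1, against -0.01 in non-tumour FEAT liver and 0.02 in wild-type liver. For Ccnd1 they were AK008891 and Stt3b on chromosome 9, at 0.015 and 0.020, with levels of -0.34 and -0.33 in tumour 5. For Ccne1 they were Scg3 and Snf1lk2, also on chromosome 9, at 0.025 and 0.026. Ccnd1 and Ccne1, on the same chromosome, differed from each other by 0.065 on this measure.

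Other genes of the Rb pathway were examined in lists of 37 genes, of which 31 were measured, 3 of them under older names. In at least 1 HCC, 9 of the 31 were lost and 6 gained, and 16 were neither, beside the 24.8% and 13.5% of all genes given above. None was called in a non-tumour liver. List genes of 1 chromosome are not independent where it moves as a whole. The gained E2f5, Ccna1, Ccna2 and Fbxw7 lie on chromosome 3, at 1 segment level of 0.208 in tumour 5. The lost E2f2 and Rbbp4 lie on chromosome 4, and E2f6, Mnat1 and Lin52 on chromosome 12. Tfdp2 and Cdc25a, also lost, lie on chromosome 9, and E2f8 and Cdkn1c on chromosome 7. The median window level of the lists was 0.02 in tumour 1 and -0.02 in tumour 5, against -0.01 in non-tumour FEAT liver and 0.01 in wild-type liver. All the calls fell in tumours 1 and 5, where 1 and 6 genes were gained and 5 and 4 were lost. Of all genes, 4.16% were gained in tumour 1. The smallest unadjusted p in the lists was 0.179, for E2f6 (difference -0.10, SE 0.07, limma adjusted p = 1.00), and no list gene passed.

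Of 10 genes for E2F factors and their DP partners, 4 were lost and 1 gained, each in a single tumour. Among all genes, 24.8% were lost and 13.5% gained in at least 1 HCC. E2f2, an activating E2F, stood at -0.24 in tumour 1, against -0.05 in non-tumour FEAT liver and 0.01 in wild-type liver. E2f6, which encodes a repressor, stood at -0.30 in tumour 1, against -0.07 in non-tumour FEAT liver and -0.02 in wild-type liver. In tumour 5 the lost genes were E2f8, another repressor, at -0.27, against -0.04 in non-tumour FEAT liver and 0.03 in wild-type liver, and Tfdp2, a DP partner, at -0.27, against -0.02 in non-tumour FEAT liver and 0.02 in wild-type liver. Tumour 4 had an E2f6 window at -0.22 without a call, since its segment fell short of the threshold. E2f8 lies on chromosome 7, in the same lost segment as Ccne1. The gained gene was E2f5 in tumour 5, at 0.19 with a segment at 0.21, against 0.06 in non-tumour FEAT liver and 0.07 in wild-type liver. Neither relative of Rb1, Rbl1 or Rbl2, was called.

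Among 4 measured inhibitors of cyclin-dependent kinases, Cdkn1c was the only one called. It lies on chromosome 7 in the segment of Ccnd1, and stood at -0.30 in tumour 5, against -0.01 in non-tumour FEAT liver and 0.01 in wild-type liver. Cdkn2a, which encodes an inhibitor of Cdk4 and Cdk6, stood at -0.19 in tumour 1, against -0.01 in non-tumour FEAT liver and -0.05 in wild-type liver, and was not called. Cdkn2c was not called either, at -0.19 in tumour 1, against 0.04 in non-tumour FEAT liver and -0.03 in wild-type liver. Both lie on chromosome 4, which stood at -0.18 in tumour 1, with their segments at -0.13 and -0.19. Of the S phase genes, Ccna1 and Ccna2, both on chromosome 3, were gained in tumour 5 by a segment at 0.21. Their windows stood at 0.20 and 0.17 in that tumour, against 0.07 and 0.08 in non-tumour FEAT liver and 0.01 and 0.04 in wild-type liver. Cdc25a, a phosphatase gene that activates Cdk2, was lost in tumour 5 at -0.31, against -0.03 in each of the non-tumour livers.

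Skp2, part of the ubiquitin ligase that removes Cdk inhibitors, was the only list gene called in 2 tumours. It was gained in tumour 1 at 0.28 and in tumour 5 at 0.26, against -0.03 in non-tumour FEAT liver and 0.02 in wild-type liver, while tumours 2, 3, 4 and 6 lay between -0.02 and 0.08. Skp2 lies on chromosome 15, in segments at 0.31 in tumour 1 and 0.28 in tumour 5. Among all genes, 4.16% were gained and 10.7% lost in tumour 1, and 11.3% were gained in tumour 5. The share gained in both tumours was not computed. Fbxw7, part of the ligase that removes cyclin E, was gained in tumour 5 by a segment at 0.21. Its window stood at 0.18 in that tumour, against 0.05 in non-tumour FEAT liver and 0.02 in wild-type liver. Of the 5 measured genes of the DREAM complex, which silences cell cycle genes in resting cells, Lin9 was gained in tumour 5 at 0.24, against -0.03 in non-tumour FEAT liver and -0.01 in wild-type liver. Lin52 and Rbbp4 were lost in tumour 1 at -0.26 and -0.23, against 0.01 and -0.02 in non-tumour FEAT liver and 0.01 and -0.04 in wild-type liver. Mnat1, a subunit of the kinase that activates the Cdks, was lost in tumour 1 at -0.24, against 0.00 in non-tumour FEAT liver and -0.00 in wild-type liver.

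**Figure D4:**
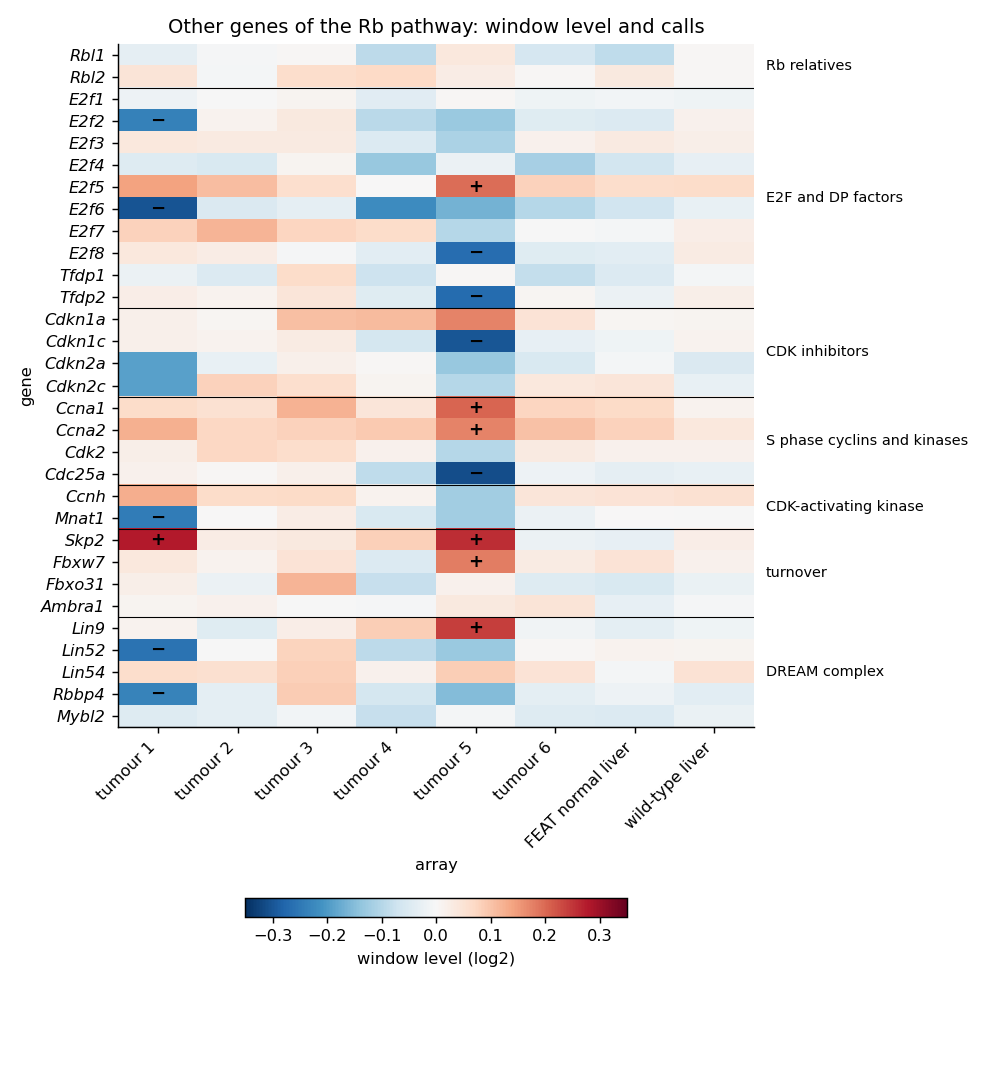
Window level (colour, log2) of the 31 measured genes of the Rb pathway lists (rows) on the 8 arrays (columns), with + for a gained and − for a lost segment. All 16 marks lie in the columns of tumours 1 and 5, and Skp2 is the only row with 2.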

How the data were processed

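Genomic DNA of 8 livers was hybridised to 2-colour Agilent 244A arrays, sample in Cy3 and reference in Cy5, per the labels. The series description names CGH analytics 3.4, and the scanner output of wild-type liver was made with Feature Extraction 9.1.3.1, per the file headers. The deposited log2 values of that array equal its log10 ratio of red over green, as defined per the file headers, after a change of sign and base and a constant of 0.0014 (r = -1.00 over spots), so that higher means more sample DNA. For the other arrays the direction was taken from the labelled dyes, and all 28 array pairs correlated above 0 (0.264 to 0.760). Intensity values of the deposited scanner file ranked probes by brightness, and other deposited columns gave their names, positions and flags.

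All 235406 rows were matched by spot number, spots of 1 probe were averaged, and arrays were centred on the median of their autosomal probes, with no loess or quantile step. Before segmentation, values were drawn in to 3 noise SDs around the running median of 5 probes. The penalty factor was 2, and segments had 5 probes or more. The windows of 24689 genes in 6 HCC and 2 non-tumour livers were compared with limma 3.58.1 (R 4.3.3), with p-values adjusted after Benjamini and Hochberg and a limit of 0.05. They measure only the spread between these samples, which may be technical. Both steps were also run on simulated data. For limma the planted shifts were in all 6 HCC, with noise independent between genes, so that run does not cover changes of single tumours. The genes named were all members, each list gene called on an array, and the 2 genes of another chromosome whose windows had the smallest root mean square difference from each called member. Cdkn2a, Cdkn2c and the neighbours in windows were named after their values were seen. The members and lists were chosen with earlier results of these data known. Older symbols were matched through a RefSeq table (GRCm38.p6), used for names only. Alternatives covered the window, centring, GC content over 500 kb, dim probes, the threshold, the segmentation and each array left out. Python 3.11.15, numpy 2.4.6, pandas 2.3.3, numba 0.67.0 and matplotlib 3.10.9 were used.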

Additional observations from a re-analysis of the deposited data

Results flagged for a closer look

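In 4 of the 8 members, 1 tumour's window level stood far from the other 5, with a gap to the nearest tumour above Dixon's 95% critical value. Chance alone gives such a gap in about 1 of 20 groups. The share of all gene windows with such a gap was not computed, so the count cannot be read as particular to the members. Of all genes, 10.7% were lost in tumour 1, and 13.9% were lost and 11.3% gained in tumour 5. These were Rb1 in tumour 1 at -0.22 (nearest tumour -0.04), Ccnd1 in tumour 5 at -0.32 (nearest -0.08), Ccne1 in tumour 5 at -0.27 (nearest -0.02) and Ccnd3 in tumour 5 at 0.12 (nearest 0.03). Ccnd1 and Ccne1 share chromosome 7, so their values are not independent. Against the rest of its chromosome, the Ccne1 window of tumour 4 stood apart at 0.048 (nearest 0.00), on the array with the highest probe noise, 0.49. No mean of a gene's own probes stood apart in this way (0 of 8).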

How the results depend on the processing

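The 3 losses and 0 gains of members held under other penalties and segment sizes, the GC correction, calls from window means and with dim probes left out. At a threshold of 0.1 there were 6 losses and 1 gain, and at 0.3 there were 0 losses. Centring on the mode gave 1 gain, of Ccnd3 in tumour 5. Each array was segmented alone, so leaving out 1 tumour could only remove that tumour's own calls. It gave 1 to 3 losses and 0 gains, with 2 losses without tumour 1 and 1 without tumour 5. In limma no member was called under any alternative (adjusted p from 0.973 to 1.00). Without adjustment, 18 windows of all genes passed, and 162 against the rest of the chromosome. There, leaving out 1 array gave 0 to 21 adjusted calls, with 21 without the non-tumour FEAT liver. With 1 non-tumour liver left, that sample is assumed to vary like the tumours.

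The differences of window levels were small and some changed sign. Leaving out 1 array gave -0.066 to 0.0057 for Rb1 (the highest without tumour 1), -0.063 to 0.0034 for Ccnd1 and -0.065 to 0.0081 for Ccne1 (the highest without tumour 5), -0.077 to 0.033 for Ccnd2 and -0.025 to 0.014 for Cdk4. Without a change of sign it gave 0.015 to 0.059 for Ccnd3, -0.068 to -0.023 for Ccne2 and 0.0076 (without the non-tumour FEAT liver) to 0.054 (without wild-type liver) for Cdk6, whose value was 0.0037 with medians and 0.0057 with a window of 0.25 Mb. From own probes only, the difference was -0.31 for Ccne1 (SE 0.16), -0.13 for Ccnd1 (SE 0.14) and 0.054 for Ccne2. For Cdk4 it was 0.0069 with mode centring or no centring, 0.0039 with the GC correction and 0.25 from its own probe. Against the rest of the chromosome, leaving out 1 array gave -0.027 to 0.015 for Rb1, -0.033 to 0.010 for Ccnd1, -0.054 to 0.032 for Ccnd2, -0.060 to 0.0019 for Ccnd3, -0.023 to 0.0094 for Ccne1, -0.0029 to 0.019 for Ccne2 and -0.027 to 0.00079 for Cdk4. With flanks of 1 to 10 Mb the value was 0.010 for Rb1 and -0.0021 for Ccne2, and with the GC correction -0.0024 for Ccne2. Ccne1 gave 0.021 with medians and 0.0078 with a window of 0.25 Mb, where Cdk6 gave -0.0097. The cause of these changes was not tested. No paired analysis was possible because the replicate numbers follow accession order and the non-tumour groups hold 1 sample each.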
